A study of Mus musculus with 8 samples.

Results

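The S100 genes encode small proteins that bind calcium through a pair of EF-hand loops and mostly work as dimers. Inside the cell they pass calcium signals to partners such as the annexins, and some, above all the S100a8 and S100a9 subunits of calprotectin, are stored in large amounts by neutrophils and act outside the cell on receptors of damage signals. The lactating mammary gland moves calcium into milk, and its luminal epithelium, its myoepithelium, its stroma and its immune cells are each known to make different members of the family. The members described here were chosen by symbol: S100a1, S100a4, S100a6, S100a8, S100a9, S100a10, S100a11, S100a13, S100a14 and S100a16, which make 10 of the 18749 gene symbols that probes of the array matched by accession. Genes of the family outside the 10 are given near the end. Each had 1 probe, and all 10 were well above background on all 8 arrays and entered the test of 14137 genes.

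RNA came from the No. 4 mammary glands of female C57/Bl6 mice on lactation day 1, from 4 wild-type dams (WT) and from 4 dams without Th-POK (KO). The dams were matched for age, and their ages are not given in the sources used here. Th-POK is a zinc finger transcription factor encoded by Zbtb7b, known as the switch to the CD4 lineage in T cells. The KO dams were compared with WT dams to learn what the factor does at the onset of lactation. No Cre or tissue restriction is named for the KO allele, and how it was made is not given in the sources used here. Each gland gave 1 Agilent one-colour array, and all values are log2 signals after quantile normalization. Zbtb7b itself was not well above background on any KO array and was at least 81.5-fold lower there (limma adjusted p = 5.71e-09). The 4 WT arrays lay on 1 glass slide and the 4 KO arrays on a different slide, so genotype and slide cannot be told apart in any difference below. The glands are whole tissue, in which fewer cells of a type and less RNA per cell cannot be told apart.

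All 10 genes lie on mouse chromosome 3, as does Zbtb7b. A promoter window, running from 250 bases before to 50 bases after the gene start in RefSeq (build GRCm38.p6), was given for 8 of the 10 genes (9 windows), not for S100a10 and S100a14. The motif TATAAA, the core of the TATA box that positions transcription, stood on either strand in 3 of these 8, S100a4, S100a8 and S100a9, against 13.6% of all 32851 windows. In the 60 bases before the start on the gene's own strand it stood in S100a4 and S100a8, against 2.87% of windows, and these stretches are shown because they hold the motif close to the place that is usual for a TATA box. S100a8 and S100a4 had differences of opposite sign between the genotypes, as given further on. TATAAA is in capitals.

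S100a4, chr3:90603727-90603756, plus strand: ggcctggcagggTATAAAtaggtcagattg

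S100a8, chr3:90669029-90669058, plus strand: caagctttcctcTATAAAagcagctgacac

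The motif began 31 bases before the start of S100a4 and 30 bases before that of S100a8, while in S100a9 it began at the annotated start itself. TGANTCA, the AP-1 motif, stood on either strand in S100a11 and S100a16 against 7.81% of windows, and TTGCGCAA, a C/EBP motif, in none of the 8 against 0.183%. The windows of S100a1 and S100a13, which are transcribed in opposite directions, shared 204 bases.

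None of the 10 members passed an adjusted p of 0.05 in limma, where 16.5% of all genes tested did (7.53% higher and 8.96% lower in KO). At an unadjusted p under 0.05, limma took 3 members (S100a9, S100a16 and S100a4) against 36.3% of genes. Run on the same values, the methods' t-test took 2 members at an unadjusted p under 0.05, against 33.7% of genes, and 0 after adjustment. The mean was higher in KO glands for 9 members and lower for S100a4. The median difference over the 10 was 0.32 on the log2 scale, against -0.02 over all genes tested, and was 0.19 without WT array 2 and 0.21 without KO array 1. With the replicate number as a block, 1 member, S100a9, passed, where 19.5% of all genes did and 8.75% were higher.

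**Figure D1:**
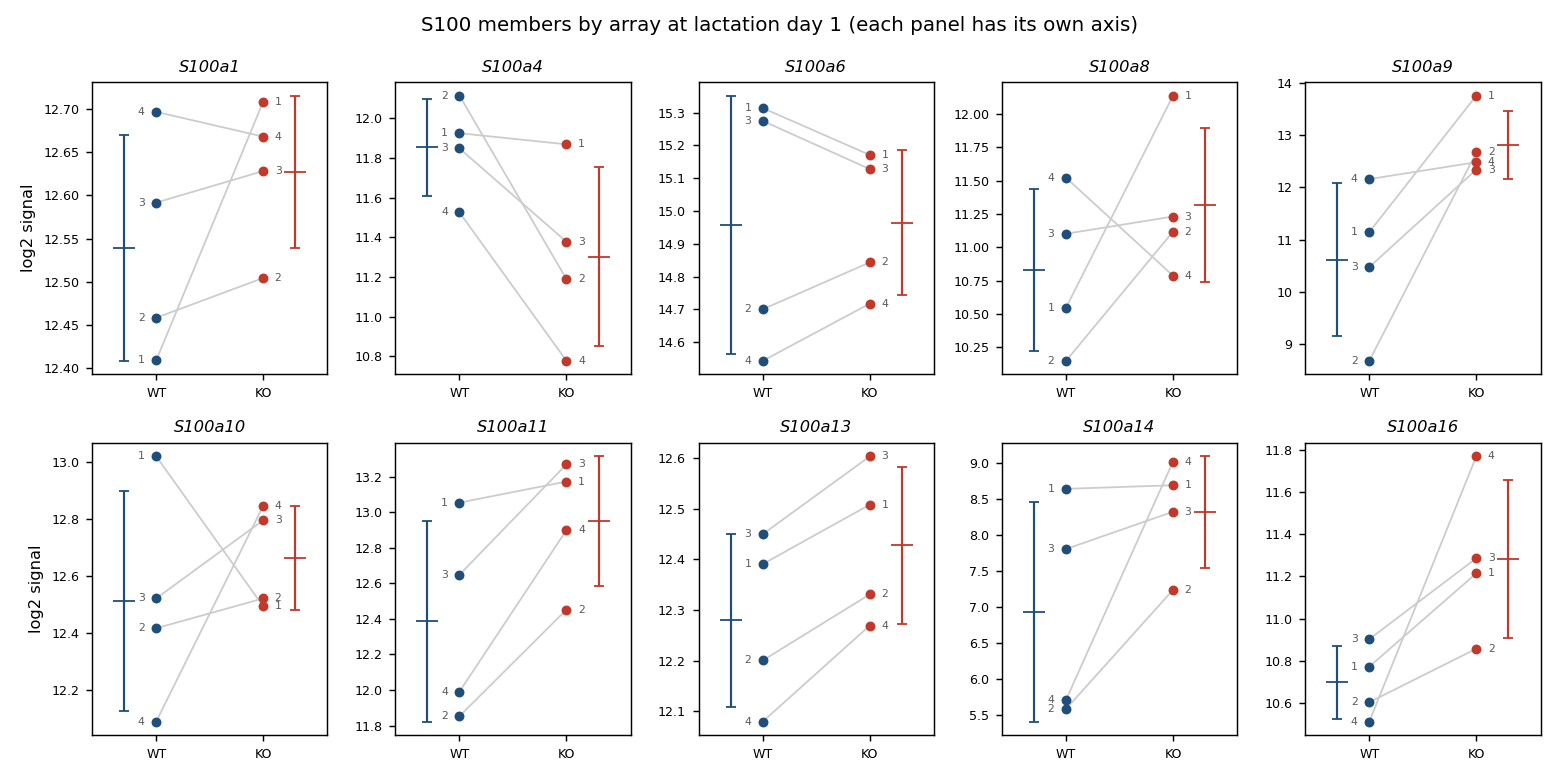
Log2 signal of the 10 S100 genes on each of the 8 arrays, WT in blue and KO in red, with the replicate number beside each point, grey lines joining arrays of the same number, and bars for mean ± SD (n = 4). S100a9 is the one gene whose 4 KO arrays, from 12.34 to 13.75, all lie above its 4 WT arrays, from 8.68 to 12.16.

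S100a9 and S100a8, the calprotectin subunits, bind each other, chelate zinc and manganese, and make up much of the cytosolic protein of neutrophils. S100a9 read 11.14, 8.68, 10.47 and 12.16 on WT arrays 1 to 4 and 13.75, 12.67, 12.34 and 12.48 on KO arrays 1 to 4. Every KO array was above every WT array, which held for 1 of the 10 members and for 11.1% of all genes. Yet WT array 4 came within 0.32 of the KO array of its number, here called its partner, while WT array 2 lay 3.98 below its own. The labels do not say what a shared number stands for. The KO mean was 2.19 higher on the log2 scale (SE 0.67), 4.58-fold with a 95% interval of 1.58 to 13.3, and the adjusted p was 0.0566 in limma and 0.0459 with the replicate block. S100a9 therefore passed in the blocked fit and not in the unblocked one. Without WT array 4 it also passed in limma, at a difference of 2.71 and an adjusted p of 0.0323, and without any other array the adjusted p lay between 0.0595 and 0.130. The difference fell to 1.55 without WT array 2 (adjusted p = 0.089).

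S100a8 read 10.55, 10.15, 11.10 and 11.52 in WT and 12.14, 11.12, 11.23 and 10.79 in KO. The genotypes overlapped widely: WT array 4 was above 3 of the KO arrays, and KO array 1 alone was above all WT arrays. The difference of 0.49 (SE 0.36, 95% interval -0.33 to 1.31) did not pass (limma adjusted p = 0.357), and 3 of the 4 KO arrays were above the WT array of their number. Within an array, S100a9 minus S100a8 ran from -1.46 to 0.63 in WT and from 1.11 to 1.69 in KO without overlap. This comparison was chosen after the values were seen and was not tested, and its share over other pairs of genes was not computed.

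Over the 8 arrays, Pearson's r between S100a8 and S100a9 was 0.803 (exact permutation p = 0.0131, 0.0262 adjusted over the 2 relations computed) and Spearman's rho was 0.667 (exact permutation p = 0.0831, 0.166 adjusted). With each genotype's mean subtracted, r was 0.802 (permutation p = 0.0138). That permutation exchanged the centred values between genotypes as well as within them, so its p is approximate and not exact. Without KO array 1 and WT array 2, the arrays farthest from the median of S100a8, r fell to 0.273 (exact permutation p = 0.592), so the relation rests on those arrays. The genes whose signal followed S100a9 most closely over the 8 arrays were Klhl24 (r = 0.977), Trim12c (0.974) and Smad7 (0.966), and those closest to S100a8 were Akap6 (0.911), Marchf6 (0.905) and Adora1 (0.904). These are descriptive values from 14137 genes over 8 arrays that also differ in genotype, and none of the 6 is among the neutrophil genes described next.

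Some neutrophil genes were called higher in KO, at a share near that of all genes. Of 27 genes listed as neutrophil markers, 21 were tested, 4 were higher in KO and none was lower, which is 19% against 16.5% of all genes tested. The filter on dim probes let 3 of these 4 in through the KO arrays (Camp and Ngp on 0 WT arrays well above background, Stfa1 on 2), so they could be called in this direction alone, and of the 18 genes well above background on all 8 arrays 1 was called, Ltf. In a fit of all 13413 genes well above background on all 8 arrays, 1016 were called higher and 1153 lower. Camp, the precursor of the cathelicidin peptide of secondary granules, was not well above background on any WT array and was at least 8.54-fold higher in KO (adjusted p = 0.00030). Ngp, another granule protein of maturing neutrophils, was likewise above background on KO arrays alone and was at least 7.11-fold higher (adjusted p = 0.0045). Ltf, lactoferrin, which milk-making epithelium also secretes, rose by 1.31 (adjusted p = 0.0066), and Stfa1, a cystatin, by 1.58 (adjusted p = 0.0328).

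Other genes of the neutrophil list did not pass or were not measured. Csf3r, the receptor of the neutrophil growth factor, differed by 0.08 (adjusted p = 0.861) and Itgam, the integrin CD11b, by -0.03 (adjusted p = 0.938). Retnlg, a secreted protein of mature neutrophils, read 7.23, 5.01, 7.14 and 7.69 in WT and 8.78, 7.67, 7.25 and 7.75 in KO and did not pass (difference 1.09, adjusted p = 0.205). Like S100a9 it was lowest on WT array 2 and highest on KO array 1. Fpr1 (7.02) and Fpr2 (6.49), of the same list, were instead highest of the 8 arrays on WT array 2. These orders were looked at after the values were seen and were not tested. Il1b, a cytokine that neutrophils and macrophages make, was lower by 0.67 and passed with the replicate block alone (adjusted p = 0.0492). Ly6g had no matched probe, and Cxcr2, Elane and Mmp8 did not pass the filter on dim probes. Over the 18 genes well above background on all 8 arrays, the mean lay between 7.99 and 8.11 on WT arrays and between 7.82 and 8.53 on KO arrays, so the genotypes overlapped, and the median difference was -0.09. With Camp, Ngp and Stfa1 included it lay between 7.26 and 7.34 in WT and between 7.57 and 8.30 in KO, a separation that came with those 3 genes. The relation of S100a8 with the mean of all 21 did not pass (r = 0.687, exact permutation p = 0.0829, rho = 0.357, exact permutation p = 0.389, both also the adjusted values), nor did that with the mean of the 18 (r = 0.554, exact permutation p = 0.189). Leaving out WT array 4 took the r over the 21 to 0.885 (exact permutation p = 0.0187), and leaving out KO array 1 and WT array 2 took it to -0.0422. Among 10 genes for neutrophil attraction, of which 5 were tested, Cxcl1, the main neutrophil chemokine of the mouse, rose by 2.24 (adjusted p = 0.00417). The other 4 tested had lower means in KO and did not pass in limma: the acute phase proteins Saa1 (-1.57, adjusted p = 0.227), Saa2 (-1.42, adjusted p = 0.233) and Saa3 (-1.98, adjusted p = 0.177), and Il1b. The median difference of the 5 was -1.42, and the call of Cxcl1 is 20% of them, against 16.5% of all genes tested. The part of neutrophil number in the S100a9 difference was not tested.

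**Figure D2:**
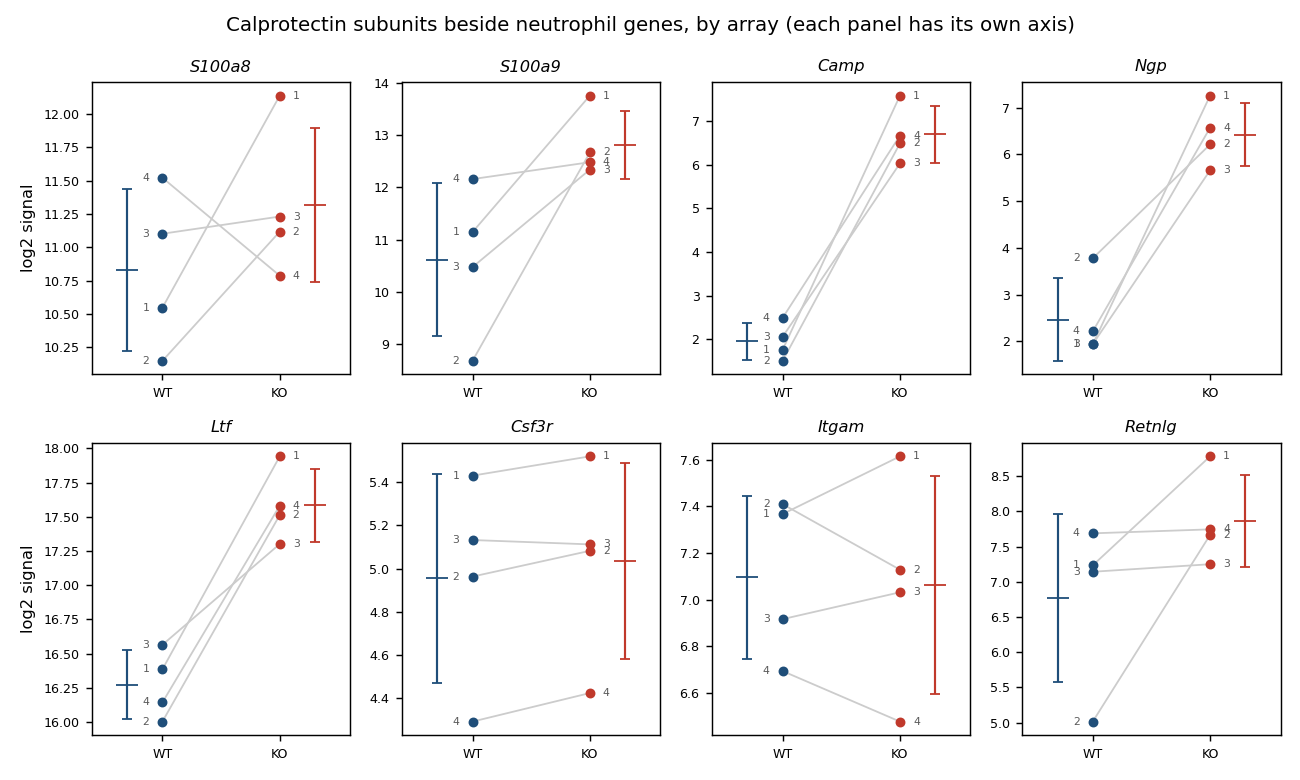
Log2 signal of S100a8 and S100a9 beside 6 neutrophil genes on the 8 arrays, drawn as in the plot of the 10 members. Camp, Ngp and Ltf share with S100a9 KO arrays that all lie above the WT arrays, while Csf3r (difference 0.08) and Itgam (-0.03) overlap throughout. Camp and Ngp were not well above background on any WT array and entered the test through the KO arrays alone. The mean of the 18 neutrophil genes well above background on all 8 arrays overlapped between genotypes (median difference -0.09).

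S100a4 and S100a6 mark stroma and motile cells in many tissues: S100a4 binds non-muscle myosin and is known from fibroblasts and macrophages, and S100a6 binds the calcyclin-binding protein Cacybp. S100a4 read 11.92, 12.11, 11.85 and 11.53 in WT and 11.87, 11.19, 11.38 and 10.78 in KO. Each KO array was below the WT array of its number, from 0.06 for number 1 to 0.92 for number 2, but KO array 1 lay within the WT values. The mean was 0.55 lower on the log2 scale (SE 0.23, limma adjusted p = 0.123, 0.0653 with the replicate block). S100a4 was the 1 member below its partner in every pair, as 25.7% of all genes were.

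S100a6 read 15.31, 14.70, 15.27 and 14.54 in WT and 15.17, 14.84, 15.13 and 14.72 in KO. Both genotypes had arrays 1 and 3 high and arrays 2 and 4 low, so the spread within a genotype was far larger than the difference of 0.01 (SE 0.21, 95% interval -0.46 to 0.47). Scaling each array to its 75th percentile instead turned that difference to -0.15. Its partner Cacybp differed by -0.45 (adjusted p = 0.057), and by -0.52 with 75th percentile scaling, where it passed (adjusted p = 0.045). Of 11 fibroblast markers tested, Dcn, decorin, rose by 0.50 (adjusted p = 0.026), a call lost with 75th percentile scaling (0.37, adjusted p = 0.060). The other 10 did not pass, although Col1a1 passed with the replicate block (0.54 higher, adjusted p = 0.0342). The call of Dcn is 9.09% of the fibroblast genes tested, against 16.5% of all genes. None of 16 macrophage and monocyte markers passed in limma, where 16.5% of all genes did, and Cd14 passed with the block (1.39 higher, adjusted p = 0.0191). The part of fibroblast or macrophage number in the values of S100a4 was not tested.

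S100a10 and S100a11 are the annexin partners of the family. S100a10, also called p11, joins Anxa2 in a tetramer at the plasma membrane that binds Ahnak and plasminogen, and S100a11 joins Anxa1. S100a10 read 13.02, 12.42, 12.52 and 12.09 in WT and 12.49, 12.52, 12.80 and 12.85 in KO, with WT array 1 the highest of all 8, and its difference of 0.15 (SE 0.20) did not pass (adjusted p = 0.605). S100a11 read 13.05, 11.85, 12.65 and 11.99 in WT and 13.17, 12.45, 13.27 and 12.90 in KO. Here each KO array exceeded its WT partner, by 0.12 to 0.91, and yet WT arrays 1 and 3 lay among the KO values. The difference was 0.56 (SE 0.29, 1.48-fold), with an adjusted p of 0.200 in limma and 0.0506 with the replicate block.

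Of 11 annexin and Ahnak genes 10 were tested, and 4 were higher in KO and none lower, which is 40% against 16.5% of all genes tested (7.53% higher). Anxa1, the partner of S100a11 and a brake on neutrophil recruitment, rose by 1.05 (SE 0.25, adjusted p = 0.0299), and its 4 KO arrays were all above its WT arrays. Anxa11 rose by 0.44 (adjusted p = 0.0346), Anxa7 by 0.39 (adjusted p = 0.0387, 0.0518 with the replicate block) and Ahnak by 0.65 (adjusted p = 0.0484, 0.0618 with 75th percentile scaling). Anxa2, the partner of S100a10, differed by 0.37 (adjusted p = 0.333). Anxa8 read 1.83 higher, with an adjusted p of 0.0899 in limma, and passed with the replicate block (adjusted p = 0.0176). The calls in this list depended on single arrays: 0 of the 10 genes passed without WT array 2, 3 or 4 or KO array 1 or 3, and 1 passed without KO array 2. Calls over all genes fell under each of these omissions too. Those higher in KO fell from 1065 to between 266 (without KO array 3) and 805 (without WT array 4).

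S100a14 and S100a16 are members of epithelia. S100a14 lies at cell junctions and S100a16 is made by many cell types, adipocytes among them. S100a14 read 8.64, 5.59, 7.80 and 5.71 in WT and 8.69, 7.24, 8.32 and 9.01 in KO. The WT arrays split into a high pair, 1 and 3, and a low pair, 2 and 4, an 8.28-fold range, and the high pair overlapped the KO arrays. The difference of 1.38 (SE 0.72, 95% interval -0.26 to 3.02) did not pass (adjusted p = 0.201). It came to 0.05 between the arrays numbered 1 and 3.30 between those numbered 4.

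S100a16 read 10.77, 10.60, 10.90 and 10.51 in WT and 11.21, 10.86, 11.29 and 11.77 in KO. The genotypes overlapped only in that KO array 2 was below WT array 3, and the spread was small, with an SD of 0.17 in WT and 0.37 in KO (n = 4 each). The difference was 0.58 (SE 0.19, 95% interval 0.15 to 1.02), with an adjusted p of 0.0657 in limma and 0.0772 with the replicate block.

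Some epithelial markers were called higher in KO. Of 11 luminal markers, all tested, 4 were higher in KO: Cdh1, E-cadherin, by 0.88 (adjusted p = 0.014), Cldn3, a claudin of tight junctions, by 1.11 (adjusted p = 0.025), the keratin Krt18 by 0.67 (adjusted p = 0.035) and Epcam, an adhesion molecule of epithelia, by 0.52 (adjusted p = 0.040, 0.0598 with the replicate block). These 4 are 36.4% of the luminal list, against 16.5% of all genes tested. Lalba, the milk protein alpha-lactalbumin, was lower by 0.45 and passed with the block alone (adjusted p = 0.0444, 0.197 without it). The mean of the 11 lay between 14.86 and 15.11 in WT and between 15.22 and 15.36 in KO without overlap, which was not tested. Taken singly, only the 4 called genes had every KO array above every WT array, against 11.1% of all genes tested. Lalba was below the WT array of its number in all 4 pairs. The calls fell to 1 without KO array 1, 2 or 3, to 2 without WT array 2 or 4, and to 1 in the methods' t-test. Over all genes, calls higher in KO fell in each of these settings too, from 1065 to between 266 and 805. With 75th percentile scaling Krt18 lost its call (0.50, adjusted p = 0.0627) and Elf5, the transcription factor of alveolar cells, was called lower (-0.55, adjusted p = 0.0343), so that 3 were higher and 1 lower. Elf5 had a difference of -0.35 in the quantile-normalized values (adjusted p = 0.107) and was below its WT partner in all 4 pairs. Csn2, beta-casein, differed by 0.01 (adjusted p = 0.939). Of 10 basal markers Krt17 fell by 1.22 (adjusted p = 0.037) and none rose, and of 8 adipocyte genes Cfd (0.68, adjusted p = 0.027, 0.0537 with 75th percentile scaling) and Plin1 (0.71, adjusted p = 0.040) were higher. These calls are 10% of the basal and 25% of the adipocyte genes tested, against 16.5% of all genes. The part of the luminal or adipocyte share in the values of S100a14 and S100a16 was not tested.

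S100a13 and S100a1 had the lowest SDs of the 10 members in both genotypes. S100a13 takes part in the release of Fgf1 and Il1a by cells without a signal peptide, and S100a1 is known as a calcium regulator of muscle. S100a13 read 12.39, 12.20, 12.45 and 12.08 in WT and 12.51, 12.33, 12.60 and 12.27 in KO. Each KO array was above its WT partner by a nearly equal step, from 0.12 to 0.19, although the genotypes overlapped, and the difference of 0.15 (SE 0.13) did not pass (adjusted p = 0.424, 0.281 with the replicate block). S100a1 read 12.41, 12.46, 12.59 and 12.70 in WT and 12.71, 12.50, 12.63 and 12.67 in KO, with KO arrays all inside or just above the WT range and a difference of 0.09 (SE 0.10, adjusted p = 0.569).

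**Figure D3:**
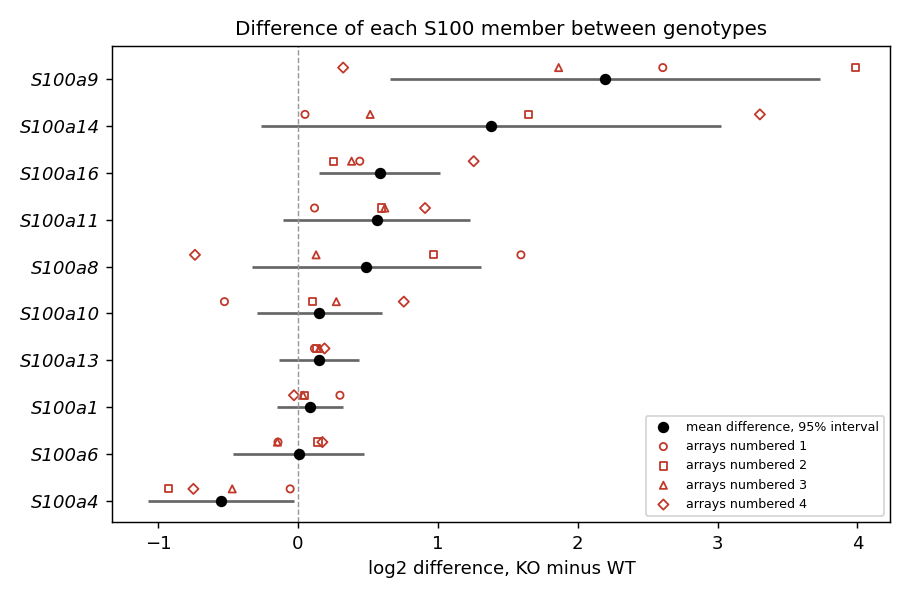
Log2 difference, KO minus WT, of the 10 genes: black points with lines give the mean difference and its 95% interval in limma, and open red marks the differences between arrays of the same replicate number. S100a9 (2.19), S100a14, S100a16, S100a11 and S100a13 have all 4 open marks above 0, and S100a4 (-0.55) has all 4 below.

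Arrays of the same number shared part of their pattern in this family. Arrays 1 and 3 were both above arrays 2 and 4 in WT for 6 members, S100a6, S100a10, S100a11, S100a13, S100a14 and S100a16, where 25.9% of all genes had that order. In KO the same held for 5 members, S100a4, S100a6, S100a8, S100a11 and S100a13, against 22.2% of genes. It held in both genotypes for S100a6, S100a11 and S100a13, against 11.3% of genes. This order was chosen after the values were seen and was not tested. On WT arrays 1 and 3, 75.3% and 71.2% of probes were well above background, against 66.9% and 68.5% on WT arrays 2 and 4, while KO arrays 1 and 3 had 70.9% and 66.8% against 71.0% and 68.4%. The part of signal quality in the pattern was not tested. KO exceeded WT in all 4 pairs for 5 members, S100a9, S100a11, S100a13, S100a14 and S100a16, against 22.1% of all genes tested.

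Outside the 10, other S100 genes gave little signal. Of 8 listed, 3 were tested and none passed in limma, where 16.5% of all genes did. S100b differed by 0.63 (adjusted p = 0.104), S100a3 by -0.31 (adjusted p = 0.186) and S100g, the vitamin D dependent calbindin of calcium-transporting epithelia, by 0.18 (SE 0.84, adjusted p = 0.897). S100g spread from 4.67 to 8.16 over the WT arrays and from 4.89 to 7.54 over the KO arrays. S100a5, S100a7a and S100a7l2 were not well above background on any array, and S100a2 and S100z had no matched probe. Of the 7 genes in which an S100 domain is fused to a long repeat region, only Tchh, trichohyalin, was tested, on 1 of its 2 probes. The tested probe read from 4.13 to 9.08. The other read from 1.48 to 2.13 and was not well above background on any array, so the probes differ on whether Tchh was detected. On the tested probe the difference of Tchh was -2.22 (adjusted p = 0.062), and without KO array 4 it passed, at -2.76 (adjusted p = 0.0308).

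Among 25 receptors and binding partners of S100 proteins, 22 were tested, and 3 were higher in KO and none lower, which is 13.6% against 16.5% of all genes tested. Iqgap1, a scaffold that binds S100 proteins, rose by 0.83 (SE 0.11, adjusted p = 0.00738), Plau, the urokinase that activates plasminogen, by 0.51 (SE 0.09, adjusted p = 0.0139), and Alcam, an adhesion molecule of the immunoglobulin family, by 0.75 (SE 0.20, adjusted p = 0.0368). With the replicate block 7 were higher, Trpv6, Siah1a, Emb and Sugt1 being added, and 1 was lower, where 19.5% of all genes passed and 8.75% were higher. The number higher was 5 without WT array 1 or WT array 4. The receptors of secreted calprotectin did not pass in limma: Tlr4 differed by 0.73 (adjusted p = 0.0763) and Ager, the receptor RAGE, by 1.11 (adjusted p = 0.098). Ager and Trpv6 were well above background on 3 WT arrays and 4 KO arrays, so they entered the test through the KO arrays alone. Ly96, the co-receptor MD-2 of Tlr4, differed by -1.06, with an adjusted p of 0.069 in limma and 0.0313 with the replicate block.

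Beside the S100 genes, other genes lie between them and Zbtb7b on chromosome 3. In the gene order of RefSeq, 49 genes lie between Zbtb7b and S100a1, the nearest member, and S100a10 is the farthest. Of the 140 other genes in that stretch 47 were tested, and 7 passed, 2 higher and 5 lower, which is 14.9%, against 17.7% of 615 genes tested on the rest of the chromosome. The 5 with the smallest p were Lce1g (-1.39), Flad1 (-0.66), Creb3l4 (1.05), Lenep (-0.53) and Jtb (-0.48), with adjusted p between 0.0152 and 0.0311. The 7 became 11 with the replicate block and between 1 and 3 without WT array 2 or 3 or KO array 1, 2 or 3. Lenep and Flad1 were the 2nd and 3rd genes from Zbtb7b.

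**Figure D4:**
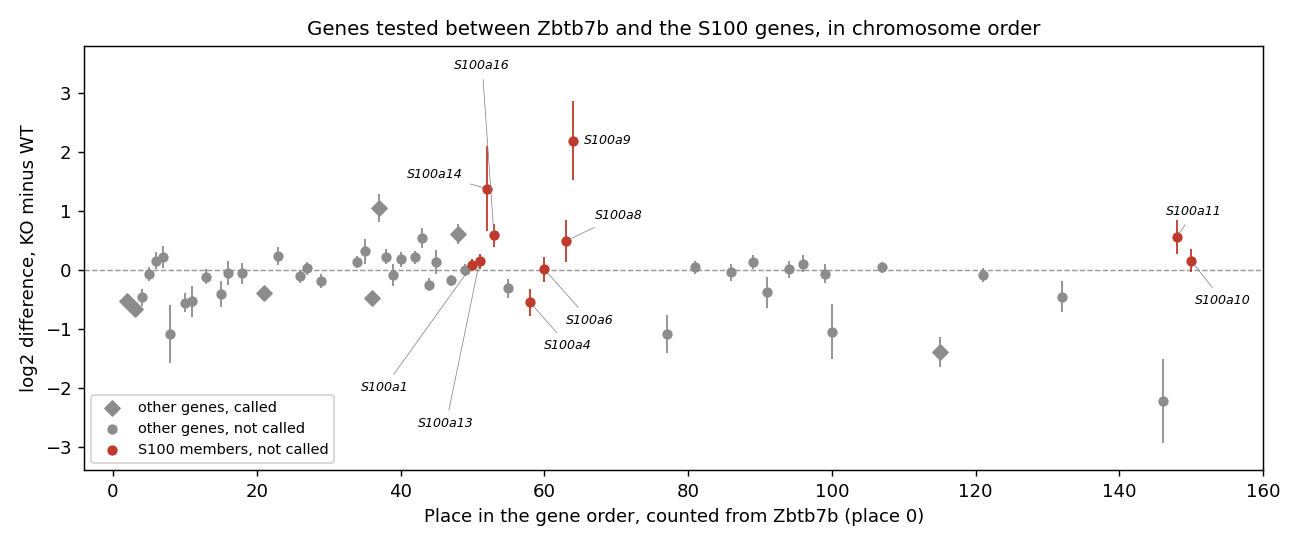
Log2 difference, KO minus WT, with SE, of each gene tested between Zbtb7b and S100a10, placed by its rank in the gene order counted from Zbtb7b and not by distance. The S100 members are in red and the other genes in grey, with diamonds for the 7 genes that passed (2 higher, 5 lower), none of them a member.

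Remaining cell type markers gave few calls. Of 8 T cell markers tested, Cd3e and Cd4 were lower in KO, by 0.60 (adjusted p = 0.037) and 0.43 (adjusted p = 0.040, 0.0596 with the replicate block), and no other passed. This is 25% of the T cell genes tested, against 16.5% of all genes. Of 5 B cell markers Cd79b rose by 1.05 (adjusted p = 0.040, 0.0744 with the replicate block), which is 20% against 16.5% of all genes tested. Cd79a was lower with 75th percentile scaling alone (-0.83, adjusted p = 0.0272). It was well above background on 4 WT arrays and 1 KO array, so it entered the test through the WT arrays alone. None of 8 endothelial markers passed in limma, where 16.5% of all genes did. Of the 23 listed genes outside the family that passed in limma, 7 kept their call whichever array was left out: Camp, Ngp, Ltf, Cxcl1, Cdh1, Iqgap1 and Plau. The other 16 all lost it without KO array 3, and between 3 and 15 lost it without one of the other arrays. The filter on dim probes was set once on all 8 arrays and was not run again for each array left out. Camp and Ngp entered the test through the KO arrays alone, so they could be called higher alone.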

How the data were processed

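RNA of 8 mammary glands (4 WT, 4 KO, 1 array each, replicate numbers 1 to 4 from the labels) was measured on Agilent one-colour arrays. The authors deposited Feature Extraction 10.7 output, with intensity values already background-subtracted within each array, and a table of log2 values quantile-normalized by the authors in GeneSpring, used as an alternative only (median log2 6.32, r of at least 0.9985 with the scanner values of the same array). The number of arrays limits the precision.

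Quantile normalization between arrays was run on log2 intensities, outlier spots (64 to 100 an array) were left out, and no spot was saturated. Probes (41174) were named by accession through RefSeq: 26728 of 27094 NM accessions matched. Tests took probes that Feature Extraction marked as well above background on the 4 arrays of 1 genotype or more, which left 27734 probes, 20905 of them with a gene. The brightest probe stood for a gene. The 14137 genes were compared with limma 3.58.1 in R 4.3.3 (checked on simulated data), Benjamini-Hochberg adjusted over all, and a gene was called at an adjusted p under 0.05. Where a genotype was not well above background on any array, a fold is a lower limit from the lowest signal well above background. Correlations over arrays have exact two-sided permutation p-values (SciPy 1.17.1, Python 3.11.15), except that the p with genotype means subtracted is approximate. Motifs were searched on both strands, except in the stretch of 60 bases before the start.

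Deviations from the genotype means correlated between same-numbered WT and KO arrays at r = 0.219, 0.165, 0.304 and 0.283, and at -0.079 on average between different numbers. The deviations of a genotype cancel out for each gene, so the average for different numbers follows largely from that for the same number. All 4 exceeded 0.1, so a fit with the number as a block was run beside the main fit. The labels do not say what a shared number stands for, and 4 of the 8 arrays correlated best with the array of their number. The main fit had no block, and its calls do not take the numbers into account. The blocked fit is given where it changes a call. P-values measure the spread between these 4 animals a genotype.

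The alternatives were scaling to the 75th percentile, normexp (offset 50; on median signals, as no mean signal column was used), the authors' table, other probe filters, the mean over a gene's probes, probes with no gene kept, the block, an intensity trend, the methods' t-test and each array left out. Running them on gene lists and single genes other than the members was chosen after seeing the data. The members and gene lists were chosen with earlier results of these data known. Genes named are the members, Zbtb7b, up to 5 called and 3 uncalled genes a list, the 3 nearest patterns to S100a8 and S100a9, and the 5 called neighbours with the smallest p. Retnlg, Tlr4 and other uncalled genes past 3 a list were named after their values were seen.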

Additional observations from a re-analysis of the deposited data

Results flagged for a closer look

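Dixon's criterion, which chance alone meets in about 1 in 20 groups, was met in 4 of 68 groups of 4 arrays (34 genes), and none was an S100 gene. Ahnak read 13.62 on KO array 2, below 13.86 to 13.89 on the other KO arrays. Krt17 read 10.55 on KO array 4, against 11.35 to 11.47 on the others, and Krt18 read 16.58 on the same array, against 16.99 to 17.02. Ngp read 3.78 on WT array 2, against 1.93 to 2.21 on the other WT arrays, none of which was well above background.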

How the results depend on the processing

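Over 18 alternatives, 173 of 180 values of single S100 genes kept their direction and their side of the threshold. Each member had 1 probe, well above background on every array, so its difference was fixed under several of these. The probe filters, the mean over probes, unmatched probes kept, the block, the intensity trend and the t-test could change its adjusted p alone. S100a9 passed under 2, the replicate block (1 member called higher instead of 0) and without WT array 4, so that the number of members called higher ran from 0 to 1 with an array left out, and called lower was 0 throughout. S100a6 changed sign with a difference near 0: -0.15 with 75th percentile scaling, and from -0.13 to 0.13 with an array left out (below 0 without WT array 2 or 4 or KO array 1 or 3). The members' median difference ran from 0.19 to 0.39 with an array left out.

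Over all genes, calls ran from 266 to 1388 higher and from 249 to 1682 lower with an array left out (1065 and 1266 with all), and were 593 and 796 in the methods' t-test and 1651 higher with unmatched probes kept. Genes called between Zbtb7b and S100a10 were 11 with the replicate block and 1 to 8 with an array left out. The r of S100a8 with S100a9 ran from 0.654 to 0.874 with an array left out, below the threshold of its test without WT array 2 (0.654) and KO array 1 (0.718), and was 0.273 without the 2 farthest arrays. The r of S100a8 with the neutrophil mean ran from 0.204 to 0.885, was -0.0422 without those arrays and 0.554 over the 18 markers well above background on every array, an alternative added after seeing the data. Of 2495 values of other genes 131 lost their call and 27 gained one, and of 504 list counts 83 moved. The causes were not tested. Apart from the genes and counts for which it is given, the replicate block changed no call described above.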
